A study of Mus musculus with 16 samples.

Results

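Trimethylation of lysine 27 on histone H3 (H3K27me3) was profiled in macrophages sorted from injured muscle, at 2 and at 4 days post injury (dpi). The members were the 4 libraries whose labels name this mark, of 16 libraries in the series, with 2 at 2 dpi and 2 at 4 dpi. Their peak lists held 12225, 12060, 14791 and 14836 peaks on the 21 chromosomes used, in the order 2 dpi replicates 1 and 2 and 4 dpi replicates 1 and 2. Merging peaks that overlapped by at least 1 bp gave 16871 regions. All mice were C57BL6J wild type males, 8 to 12 weeks old, with hind limb ischemia from a ligated femoral artery. CD45+CD11b+F4/80+CD64+ cells were sorted from the calf of the ischemic limb, and nuclei went into CUT&Tag, in which an antibody leads a transposase to the marked chromatin so that the DNA there is cut out and sequenced. There was no uninjured group, and the labels do not say whether the libraries of a time came from separate animals or from pools. The p-values therefore measure only the spread between these libraries, which may be technical.

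H3K27me3 is laid down by Polycomb repressive complex 2 (PRC2), whose catalytic subunit is EZH2 or EZH1. The complex can also bind the mark it makes, and the mark commonly spreads outward from a point of recruitment into domains many kilobases wide. In differentiated cells the mark covers genes of other lineages and developmental regulators, and where it lies together with H3K4me3, a promoter mark, the site is called bivalent. H3K27ac, which marks active promoters and enhancers, sits on the same lysine, so a single histone tail cannot carry both.

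The lists give 2 values for each peak from the peak caller SEACR, the total signal (coverage summed over the peak) and the maximum signal (its highest point). Neither was normalised between libraries, so only ranks within a library were compared. The sequencing depth is unknown. The summed signal of a list was 1.74 times as high at 4 dpi in the mean, and signal per covered base was 12.6 and 14.5 at 2 dpi against 15.5 and 18.01 at 4 dpi. Because these totals separate by time, the depth or yield of a library and the time point cannot be told apart in the lengths and counts below. Nor can a mark on more of the cells be told from more of the mark per cell. Coordinates are those of mouse build GRCm39 and regions carry no gene names here, so the sorted cell type could not be checked against its markers. Overlap of the H3K27me3 lists with the other 3 marks is given as description. No overlap expected by chance was set beside it, so it is no check of the antibody. Peaks of single H3K4me3 libraries of the same time covered 4.90 to 7.93% of the bases in an H3K27me3 list, and those of single H3K18la libraries (lactylation of lysine 18) covered 0.914 to 3.13%. For H3K27ac the share was 1.05 to 3.31% with 3 of the 4 libraries, and 12.1 and 12.9% with 4 dpi replicate 1, whose list alone covered 205 Mb against 37.8 to 65.3 Mb for the others.

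The first question was how much of the genome carried the mark at each time. H3K27me3 peaks covered 52.1 and 61.0 Mb at 2 dpi and 79.8 and 80.9 Mb at 4 dpi, which is 56.6 ± 6.29 against 80.3 ± 0.804 Mb (SD, n = 2 each). Both 4 dpi libraries lay above both 2 dpi libraries, and the mean was 1.42 times as high. The median peak was 2924 and 3477 bp wide at 2 dpi and 3602 and 3788 bp at 4 dpi. Here too the groups did not overlap, but 2 dpi replicate 2 lay closer to 4 dpi replicate 1 than to its own replicate. Domains over 10 kb made up 6.39 and 9.13% of peaks at 2 dpi and 10.7% in each 4 dpi library. They held 24.9 and 31.3% of the covered bases at 2 dpi and 35.3 and 33.4% at 4 dpi. The 90th percentile of width was 8229 and 9541 bp against 10342 and 10348 bp. For each of these measures a 2-sided exact permutation test of 2 libraries against 2 gave p = 0.33, the smallest that this design allows, so none could pass a threshold of 0.05.

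**Figure D1:**
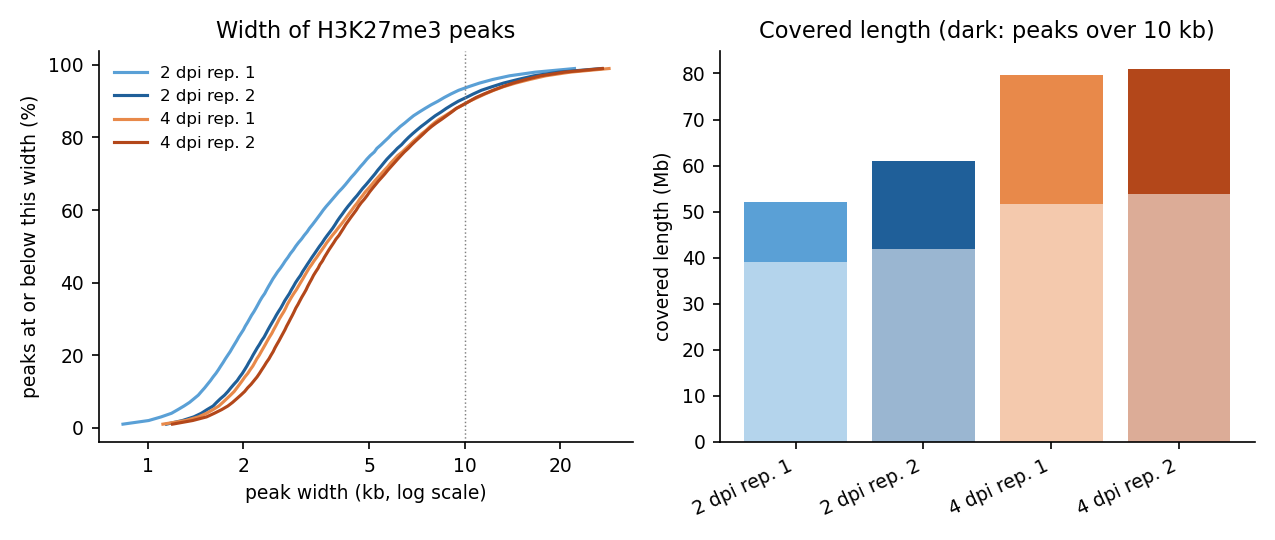
Left, cumulative share of H3K27me3 peaks (y axis, percent) at or below a width (x axis, kb, log scale) in each of the 4 libraries, with a dotted line at 10 kb; right, bars of the length covered by all peaks of a library in Mb, dark for peaks over 10 kb. The curve of 2 dpi replicate 1 lies furthest to the left, and both 4 dpi bars (79.8 and 80.9 Mb) stand above both 2 dpi bars (52.1 and 61.0 Mb).

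The libraries did not sort fully by time when compared pair by pair. The Jaccard index, the length shared by 2 lists over the length covered by either, was 0.639 within 2 dpi, 0.655 within 4 dpi and 0.531 to 0.618 between times. Over the 7515 regions called in all 4 libraries, the rank correlation (Spearman) of total signal was 0.950 within 4 dpi. Within 2 dpi it was 0.921, no higher than the 0.922 between 2 dpi replicate 2 and 4 dpi replicate 1. For maximum signal the 2 dpi pair gave 0.777, below the 0.832 of 2 dpi replicate 1 with 4 dpi replicate 1. These correlations are across regions, which are not independent replicates, and they describe these libraries only.

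Of the 16871 regions, 7515 were called in all 4 libraries, 1858 in 3, 2757 in 2 and 4741 in a single library. Single-library regions were 585 and 473 at 2 dpi and 1728 and 1955 at 4 dpi. Regions held by both libraries of a time and neither of the other were 1758 at 4 dpi (gained) and 148 at 2 dpi (lost). Both classes are sets defined by presence, with no test per region, and their sizes moved with the setting. With every list cut to its 12060 strongest peaks, the counts were 841 and 321. Without 4 dpi replicate 1 or replicate 2, gained regions numbered 3942 or 3816 and lost regions 424 or 271, and without 2 dpi replicate 1 or replicate 2 lost regions numbered 641 or 762. Gained outnumbered lost in each of these counts.

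Presence followed strength, and differently in the 2 directions. In the strongest 10% of regions by total signal, 100% of those in each 2 dpi library were called in both 4 dpi libraries, and 99.9 and 99.7% of those in the 4 dpi libraries were called in both 2 dpi libraries. In the weakest 10%, 43.3 and 46.0% of 2 dpi regions were still found in both 4 dpi libraries. Of the weakest 10% at 4 dpi, 7.71 and 9.70% were found in both 2 dpi libraries. The strong part of the H3K27me3 landscape was thus present at both times, and the regions of a single time lay mostly in the weak part of the lists.

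**Figure D2:**
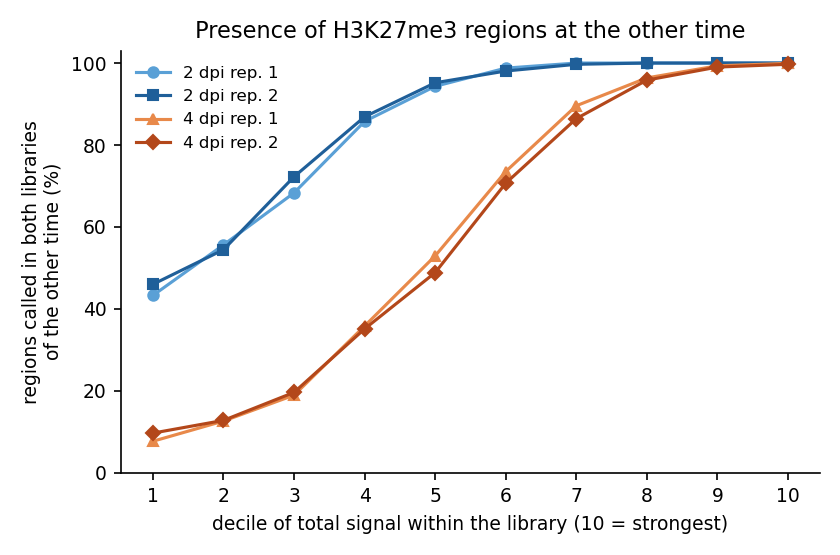
For each library, regions were divided into deciles by total signal (x axis, 10 is strongest), and the y axis gives the percent of each decile called in both libraries of the other time. All 4 lines reach at least 99.7% in the strongest decile, and the 4 dpi lines drop to 7.71 and 9.70% in the weakest, below the 43.3 and 46.0% of the 2 dpi lines.

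The 1758 gained regions were short and weak. Their median span was 3632 bp against 7096 bp for regions called in all 4 libraries, and their median percentile of total signal was 24.8 and 27.3 in the 4 dpi libraries. Of them, 147 and 202 stood in the upper 50% of those lists. They lay a median of 22.4 kb from the nearest region called in all 4 libraries, and 597 (34.0%) lay within 10 kb of one. A few were long and ranked high by total signal, which sums coverage over the called length. The highest-ranked was chr7:144710475-144727344, called over 13.2 and 14.6 kb at 4 dpi (percentiles 84.2 and 85.4) with no peak at 2 dpi, and 126 kb from the nearest region held by all libraries. Next came chr4:155544218-155558284 with 13.8 and 12.2 kb (percentiles 81.6 and 82.2), which also met an H3K27ac peak in both 4 dpi libraries and in neither 2 dpi library. After these, chr11:62826577-62845291 was called over 16.9 and 13.3 kb, in 2 and 3 pieces, and met no peak of the other marks.

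The other leading gained regions show the range. On chromosome 5, chr5:99677749-99697696 spanned 19.9 kb and was called over 12.8 and 16.8 kb. Chr2:38294640-38307044 was 1 unbroken peak of 10.98 and 11.8 kb in the 2 libraries and began or ended only 0.604 kb from a region called in all 4. Chr7:98383816-98397999 likewise lay 1.41 kb from such a region, while chr17:34945573-34957113, called over 11.2 and 10.6 kb, lay 39.7 kb away. Chr10:82996920-83014246 stood out by its company: it was called over 11.3 and 17.3 kb, and both H3K27ac and H3K18la peaks met it in all 4 of their libraries. By maximum signal the percentiles of the 8 leading gained regions ran from 25.2 to 85.0 in the 4 dpi libraries. Chr17:34945573-34957113 stood at 33.6 and 28.2, and chr2:38294640-38307044 at 36.0 and 37.3. Chr7:144710475-144727344 stood at 75.1 and 67.6.

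The 148 lost regions were shorter still, with a median span of 2519 bp, and lay a median of 60.9 kb from the nearest region called in all 4 libraries. In each 2 dpi list 1 of them stood in the upper 50% by total signal. The highest-ranked was chr2:128539267-128545316, called over 2.67 and 5.99 kb at 2 dpi (percentiles 48.3 and 54.9) and not at 4 dpi. It met H3K4me3 and H3K27ac peaks in all 4 libraries of each mark, and no H3K18la peak. Next was chr6:89424919-89429173, called over 2.79 and 3.27 kb, where H3K27ac and H3K18la peaks were present in both 4 dpi libraries and in neither 2 dpi library. Chr9:91290869-91293525, of 2.66 and 2.402 kb, lay 1.57 kb beyond the end of a domain on chromosome 9 that is described among the falls below. The remaining leading lost regions, on chromosomes 2, 5 and 8, spanned 2.24 to 4.69 kb, and 4 of them met no peak of the other marks.

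The 3 classes were then compared by the other marks that met them. H3K4me3 peaks of at least 1 library met 7.22% of gained, 22.3% of lost and 30.6% of the regions called in all 4 libraries. H3K4me3 in all 4 of its libraries, the stricter sign of a bivalent site, was present at 3.64, 11.5 and 17.1%. For H3K27ac in all 4 libraries the shares were 2.56, 8.78 and 5.96%, and for H3K18la 3.01, 4.05 and 3.91%. For each of these marks in all libraries the gained regions had the lowest share, though for H3K18la the shares lay close together. The share of regions met by H3K27ac in any library, 26.7, 31.1 and 29.8%, rested on 4 dpi replicate 1 with its long list. That library alone met 24.4% of gained regions, against 4.04 to 7.91% in the other 3 libraries. Span differed between the classes too, and its part in these shares was not tested.

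Counted in bases, most of what was called only at 4 dpi lay in regions that also had a 2 dpi peak. The bases called in both 4 dpi libraries and in neither 2 dpi library summed to 10.9 Mb, against 0.749 Mb in the opposite direction. Of the 10.9 Mb, 38.3% lay in regions with no 2 dpi peak, 49.1% at the outer edges of regions that had one, and 12.6% in gaps between 2 dpi peaks. The lost bases divided in a like way, with 31.3, 55.5 and 13.2%. With lists of equal length the sums were 8.62 and 1.05 Mb, and without 1 library they ran from 14.4 to 23.9 Mb gained and 1.83 to 4.01 Mb lost, since with fewer libraries fewer lists set the definition. The gained sum was over 1.5 times as high without 2 dpi replicate 2 (19.6 Mb), 4 dpi replicate 1 (23.9 Mb) or 4 dpi replicate 2 (21.2 Mb), and the lost sum was so without each of the 4 libraries.

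Within the 7515 regions called in all 4 libraries, the median called length was 4402 and 5153 bp at 2 dpi and 5904 and 5926 bp at 4 dpi. Both 4 dpi libraries were longer than both 2 dpi libraries in 3262 regions (43.4% of those compared), and shorter in 401 (5.34%). After the median of each library was subtracted on the log2 scale, 1337 regions (17.8%) were longer and 2345 (31.2%) shorter, so the direction of the balance turned with this scaling. The median change, 4 minus 2 dpi, was 0.23 on the log2 scale as called. No region passed an adjusted p of 0.05 for called length in limma, in either direction (0% of 7515), although 1136 had an unadjusted p below 0.05, 1108 of them longer at 4 dpi. The smallest adjusted p in limma was 0.105.

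Regions were also less broken at 4 dpi. Regions in 2 or more pieces numbered 1641 and 1731 at 2 dpi and 1175 and 1254 at 4 dpi. In 323 regions (4.30%) both 4 dpi libraries had fewer pieces than both 2 dpi libraries, and in 70 (0.931%) they had more. The share with fewer pieces was 22.4% among the 389 regions over 20 kb in mean called length and 10.7% among the 1028 of 10 to 20 kb, against 0.768% among the 2214 of 3 to 5 kb. Wide regions have more pieces to join, and the signal per base was higher at 4 dpi, and the part of either in this count was not tested.

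The second question was which regions moved against the rest of the landscape. Each library's 7515 regions were ranked by total signal, ranks were turned into normal scores (the value that rank has in a standard normal distribution), and limma tested the difference between times. A percentile given below is instead a rank among all regions called in a library. On that scale the regions called in all 4 libraries had medians of 61.2 and 61.5 at 2 dpi and 71.3 and 71.1 at 4 dpi. A move in percentile is therefore not the shift that limma tested. At an adjusted p under 0.05, 67 regions rose (0.892% of those tested) and 4 fell (0.0532%). All 67 had a longer called length in both 4 dpi libraries than in both 2 dpi libraries, against 43.4% of all 7515 regions. Total signal is summed over the called bases, so choosing regions by it favours longer calls. The mean called length of the 67 was 1.22 to 7.29 times as long at 4 dpi, with a median of 2.54 times. The maximum rank was shifted upward in 62 of the 67 and passed the test in 3. The median shift in maximum was 0.81 among the 67 and −0.03 over all 7515 regions. The rises were chosen by total signal of the same peaks, and the part of this choice in the maximum was not tested. When regions were ranked by mean signal per called base in place of total signal, none passed in limma (521 had an unadjusted p below 0.05, of which 265 were upward), so the calls rest on total signal, to which called length contributes. The calls also depended on how limma estimated the variance. With 1 constant prior variance for all ranks, and without the robust step, none passed, with 992 at an unadjusted p below 0.05. Without 4 dpi replicate 1 the counts were 12 and 8, without 4 dpi replicate 2 they were 2 and 0, and without 2 dpi replicate 2 they were 425 and 62. Without 2 dpi replicate 1 there were 73 rises and no falls.

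The region with the smallest adjusted p was chr5:122122933-122144439. It was called over 4.42 and 5.72 kb at 2 dpi and 20.9 and 19.6 kb at 4 dpi, and went from percentiles 41.4 and 47.9 to 91.5 and 91.6. At 2 dpi each library held a pair of short peaks, and at 4 dpi the stretch between them and on both sides was filled. Its shift was 1.59 ± 0.15 (SE, limma adjusted p = 0.00649), and no peak of H3K4me3, H3K27ac or H3K18la met it in any library. Chr14:31645178-31673337, also free of the other marks, was called over 5.78 and 7.65 kb and then 27.7 and 23.5 kb, with a shift of 1.24 ± 0.11 (SE, limma adjusted p = 0.00649). Its maximum stood at percentiles 71.0 and 76.8 at 2 dpi and 99.4 and 98.7 at 4 dpi, the highest at 4 dpi among the 20 leading rises, though this shift in maximum missed the threshold (limma adjusted p = 0.0546).

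**Figure D3:**
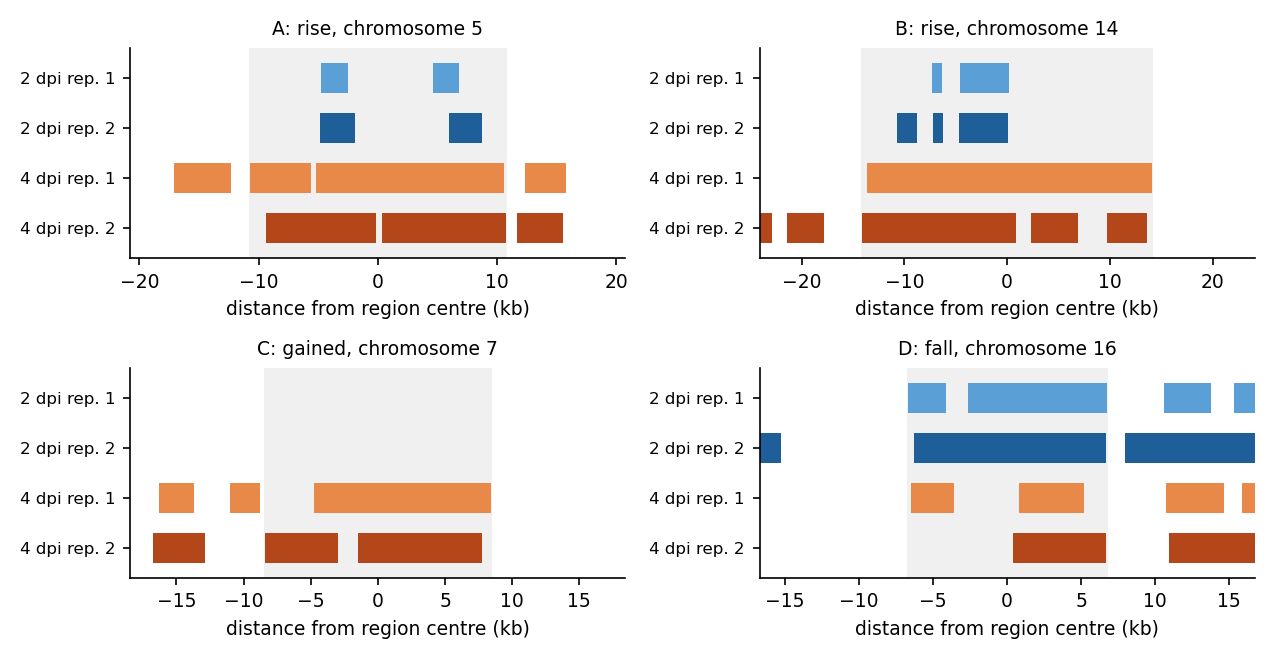
Peaks of the 4 libraries (bars, 1 row per library) around 4 regions, with the distance from the region's centre in kb on the x axis and the merged region in grey. Panels A and B are the 2 leading rises, on chromosomes 5 and 14, panel C is the highest-ranked gained region, on chromosome 7, and panel D is the fall on chromosome 16; in A and B the 4 dpi bars fill most of the region, C has no 2 dpi bar, and in D the 4 dpi bars (7.31 and 6.30 kb) are shorter than the 2 dpi bars (12.0 and 13.0 kb).

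Other leading rises were short stubs at 2 dpi and domains at 4 dpi, although none passed the limma test on called length itself. Chr2:173365396-173390576 was called over 4.35 and 2.88 kb at 2 dpi and 19.7 and 24.8 kb at 4 dpi, a shift of 1.91 ± 0.19 (SE, limma adjusted p = 0.00724). Chr6:47648373-47663973 went from 1.93 and 1.92 kb to 12.5 and 15.6 kb, the highest ratio of mean called length (7.29) among the 67. This region met H3K4me3, H3K27ac and H3K18la peaks in all 4 libraries of each mark, at 2 as at 4 dpi, and its call was lost with peaks merged across gaps of 5 kb (limma adjusted p = 0.0598). Chr10:42768120-42778836 had the highest shift of the 67, at 2.50 ± 0.39 (SE, limma adjusted p = 0.0310), with 2.03 and 1.36 kb at 2 dpi and 9.73 and 9.99 kb at 4 dpi. It lay at percentiles 26.2 and 2.06 in the 2 dpi libraries, which differed from each other far more than the 85.2 and 85.7 at 4 dpi.

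A second kind of rise was already a broad domain at 2 dpi. Chr16:10618627-10670668 was called over 21.9 and 31.1 kb in 6 and 5 pieces at 2 dpi and over 49.4 and 51.0 kb in 2 pieces at 4 dpi. Its percentiles of 92.4 and 94.6 became 98.99 and 99.03, a shift of 0.72 ± 0.08 (SE, limma adjusted p = 0.00982), and it met H3K4me3 in all 4 libraries of that mark. Chr11:72897886-72930958 was called over 16.6 and 16.8 kb and then 31.0 and 31.95 kb. Chr4:62994096-63026459 went from 17.4 and 17.0 kb, in 6 and 4 pieces, to 29.8 and 32.1 kb, in 2 pieces and 1. Chr19:29140509-29166162 went from 10.6 and 14.4 kb to 25.2 and 25.1 kb. In each of these the 2 libraries of a time lay closer to each other than to either library of the other time.

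Of the 67 rises, 26 had a mean percentile below 50 at 2 dpi, and their mean 2 dpi percentiles ran from 6.01 to 99.1. They were spread over 17 chromosomes. Chromosome 7 held 11 among its 527 tested regions, chromosome 11 held 8 among 532, and X held none among 131, beside 67 among all 7515. Of the 67, 19 lay within 1 Mb of another rise, in 9 groups. The same count was not made for other sets of regions, so it does not show clustering. The closest pair, chr4:141827339-141838434 and chr4:141839077-141856586, formed a stretch of 29.2 kb on chromosome 4. The only group of 3, on chromosome 7 from 142928999 to 144160721, had 7 gained regions between its members. A pair elsewhere on chromosome 7, across 296 kb from 48596232 to 48891761, had 10 gained regions between its members. A pair on chromosome 16, across 360 kb from 10310481 to 10670668, had 0, as did the closest pair. These counts were not set against the density of gained regions.

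**Figure D4:**
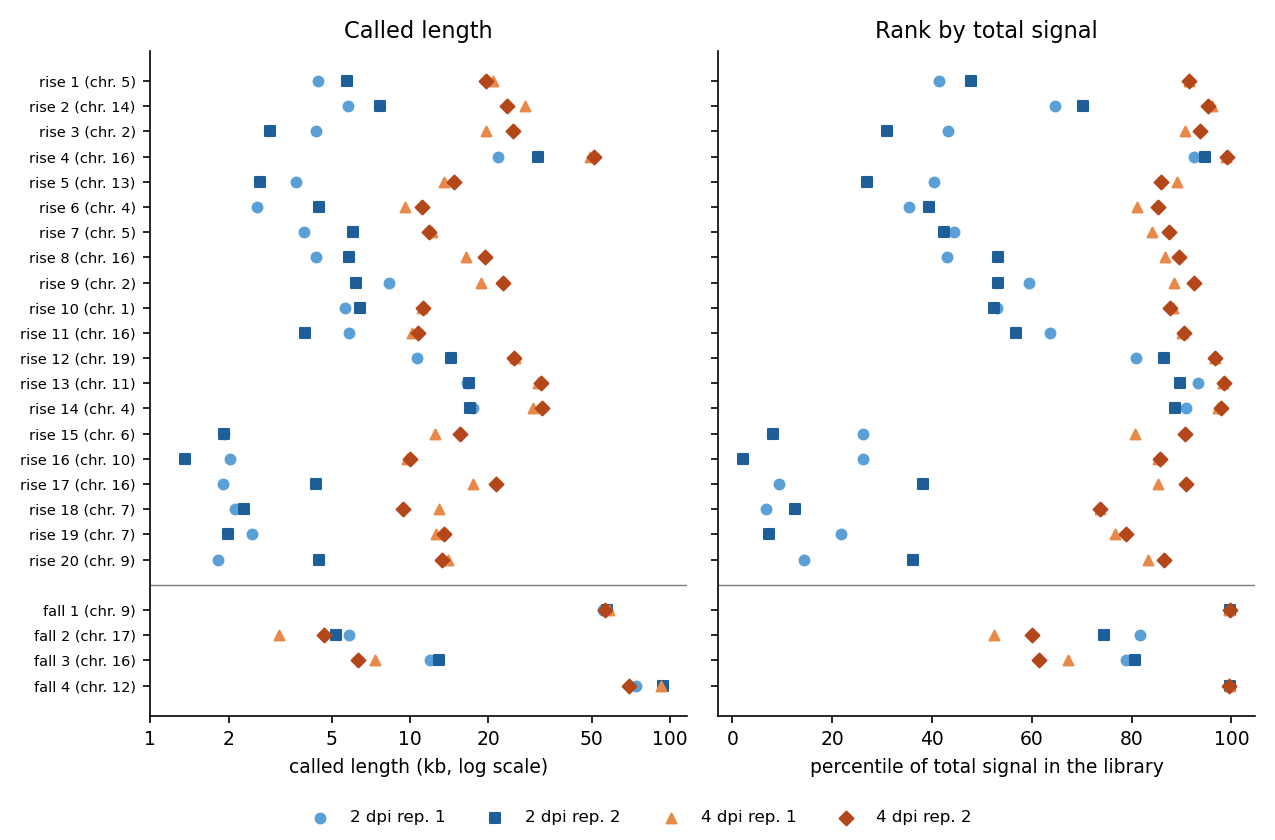
Called length (left, kb, log scale) and percentile of total signal within the library (right) for the 20 rises and the 4 falls with the smallest adjusted p, 1 row per region and 1 point per library. In every one of the 20 rises both 4 dpi points lie to the right of both 2 dpi points. The 4 falls include 2 domains above the 99th percentile at both times, whose points nearly coincide in the right panel.

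The 4 falls were of 2 kinds. Chr16:91653494-91666924 was called over 12.0 and 13.0 kb at 2 dpi and 7.31 and 6.30 kb at 4 dpi, and its percentiles of 78.9 and 80.6 became 67.2 and 61.4 (shift −0.91 ± 0.15 SE, limma adjusted p = 0.0366). With peaks merged across gaps of 5 kb the shift of the region that holds it was −0.19 and the call was lost (limma adjusted p = 0.233). Chr17:10551201-10557427 went from 5.83 and 5.19 kb to 3.13 and 4.64 kb (shift −1.17 ± 0.19 SE, limma adjusted p = 0.0357), and it was still called with such merging (limma adjusted p = 0.0376). H3K4me3 and H3K27ac peaks met both regions in all 4 libraries of each mark, and at the chromosome 16 region so did H3K18la. The other pair were very broad domains at the top of the lists. Chr9:91230060-91289302 was called over 55.1 and 57.2 kb at 2 dpi and 58.3 and 56.2 kb at 4 dpi, with percentiles of 99.8 and 99.6 (shift −0.29 ± 0.04 SE, limma adjusted p = 0.0310), so that its called lengths overlapped between times and the difference in rank was small. Chr12:12522446-12621948, 99.5 kb across, had overlapping called lengths of 74.2 and 94.0 kb against 92.1 and 69.7 kb (shift −0.34 ± 0.06 SE, limma adjusted p = 0.0459). Neither broad domain was called with peaks merged across 5 kb (limma adjusted p = 0.0719 and 0.194), nor with log2 signal scaled to the library median (limma adjusted p = 0.321 and 0.314).

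By maximum signal, 4 regions rose (0.0532% of those tested) and none fell (0%) in limma, with 533 at an unadjusted p below 0.05, of which 198 were downward. Of the 4, 3 were also rises by total signal. By percentile of maximum among all regions called in a library, those called in all 4 libraries had medians of 59.3 and 61.1 at 2 dpi. At 4 dpi these medians were 69.7 and 69.5. Chr18:60872580-60881281 had the smallest adjusted p (0.00851 in limma, shift 2.68 ± 0.35 SE): its maximum stood at percentiles 10.5 and 17.5 at 2 dpi and 95.6 and 88.3 at 4 dpi, and H3K4me3 peaks met it in all 4 libraries. Chr1:134606927-134618109 went from percentiles 40.8 and 33.3 to 97.7 and 96.8 and from 2 pieces in each 2 dpi library to 1 in each 4 dpi library. Chr10:42768120-42778836 is described above. The last, chr7:98181692-98192457, went from 44.7 in each 2 dpi library to 96.6 and 96.4 while its total signal missed the threshold (limma adjusted p = 0.0616). With peaks merged across gaps of 5 kb the chromosome 1 region had a shift in maximum of 1.10 and the chromosome 18 region of 1.87, and neither was called (limma adjusted p = 0.331 and 0.0522). None of the 4 was called without either 4 dpi library, where no region at all rose by maximum, and without 2 dpi replicate 1 or replicate 2 the counts were 286 and 61 rises.

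**Figure D5:**
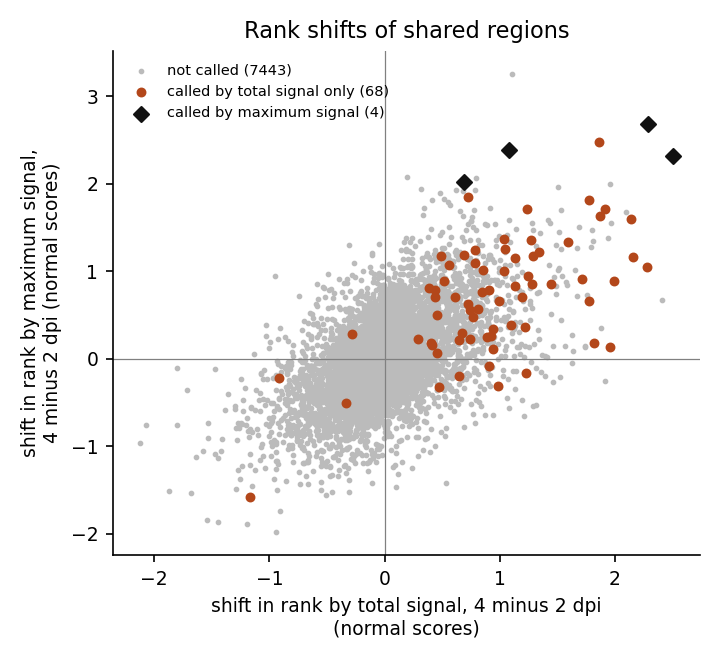
Shift in rank by total signal (x axis) against shift in rank by maximum signal (y axis), both 4 minus 2 dpi in normal scores, for the 7515 regions called in all 4 libraries; grey points were not called, orange points were called by total signal only (68), and black diamonds by maximum signal (4). Most called regions lie to the right of 0 on the x axis. Of the 67 rises by total signal, 62 also lie above 0 on the y axis, and 3 were called on both.

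The share of regions that rose was read by width and by the other marks present. By mean called length over the 4 libraries, 0 of 1243 regions up to 3 kb rose, 2 of 2214 (0.0903%) of 3 to 5 kb, 24 of 2641 (0.909%) of 5 to 10 kb, 28 of 1028 (2.72%) of 10 to 20 kb, and 13 of 389 (3.34%) over 20 kb, beside 0.892% of all. Mean called length includes the 4 dpi libraries, in which every rise was longer, so rising itself moves a region toward a wider group. Among called regions the SE of a shift was smaller at high ranks, as at chr16:10618627-10670668 (0.08), than at low ones, as at chr10:42768120-42778836 (0.39). The part of both in the order by width was not tested. Of the 294 regions that H3K18la peaks met in all 4 libraries, 13 (4.42%) rose and 1 fell, against 31 of 6482 (0.478%) with no H3K18la peak. Their median shift was 0.06, against −0.03 for all regions. For H3K27ac the shares were 7 of 448 (1.56%) and 26 of 5272 (0.493%). For H3K4me3 they were close together, 10 of 1286 (0.778%) and 49 of 5214 (0.940%). Regions with H3K18la in all libraries had a median called length of 6.83 kb against 5.22 kb for those with none. Overlap was counted over the whole merged region, so a longer 4 dpi call also widens the stretch that other marks can meet. The part of length in these shares was not tested.

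Regions that met H3K4me3 in all 4 libraries are given beside those that met it in none. The former had a median change in called length of 0.14 on the log2 scale (1.10 times as long at 4 dpi) against 0.27 (1.21 times), and both 4 dpi libraries were longer in 40.1% against 44.6%. After centring on library medians, 12.4% were longer and 41.1% shorter, against 19.9 and 27.1%. Of the 4 falls, 3 met H3K4me3 in all 4 libraries, as did 17.1% of all 7515 regions. Of the 67 rises, 49 (73.1%) met it in none, close to the 69.4% of all regions. Of the rises 17 met no peak of any other mark, a share of 25.4% against 56.9% of all regions. The rises were wider than the rest, with a median span of 21.2 against 7.10 kb. Overlap was counted over the whole merged region, which the longer 4 dpi calls of the rises widen. The part of this in the share was not tested.

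The widest domains stood at the top of the lists at both times. The 10 widest regions called in all 4 libraries spanned 96.1 to 184 kb and stood above the 99th percentile of total signal in every library, where a rank has little room to rise, and 1 of them, the chromosome 12 fall, was called. The widest, chr7:131899866-132084001, was called over 173 and 182 kb at 2 dpi and 183 and 182 kb at 4 dpi. It was broken into 7 and 3 pieces at 2 dpi and was a single peak in each 4 dpi library. Chr8:112398547-112566203 ranked first in all 4 libraries by total signal, with 159.5, 166, 163 and 163 kb called. On chromosome 15, 2 neighbouring domains, chr15:6967543-7108842 and chr15:7159332-7298394, were each called over 125 to 139 kb, and another, chr15:102830424-102960931, over 125 and 125 kb and then 129 and 130.5 kb. Chr14:70221093-70334586 had the highest ratio of mean called length among the 10 (1.19), from 89.5 and 96.2 kb in 8 and 10 pieces to 112 and 108 kb in 2 and 3 pieces, with a shift in rank of 0.09 ± 0.05 (SE, limma adjusted p = 0.390). It met all 3 other marks in all of their libraries.

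Chromosome X held a small and, as a share, lower part of the mark at 4 dpi. It carried 1.29 and 1.28% of the covered bases at 2 dpi and 1.09 and 0.950% at 4 dpi (exact permutation p = 0.33, the smallest possible). In Mb the groups overlapped, with means of 0.727 ± 0.0781 and 0.818 ± 0.0699 (SD, n = 2 each, exact permutation p = 0.667), a ratio of 1.126 beside 1.42 for the whole list. Only 6 gained regions lay on X beside 131 regions called in all 4 libraries, or 4.58 gained per 100, while the autosomes had 15.2 (chromosome 4) to 30.4 (chromosome 8) per 100. On X both 4 dpi libraries were longer than both 2 dpi libraries in 21.4% of the regions, against 43.4% of all. The mean X share was also lower at 4 dpi with equal list lengths and with any 1 library left out.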

How the data were processed

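CUT&Tag peak lists of 4 H3K27me3 libraries, 2 each at 2 and 4 dpi, were analysed, with the 12 lists of the 3 other marks used for overlaps. According to the submitters' processing notes the authors used Trim Galore 0.6.6, Bowtie2 2.4.4, SAMtools 1.13, bedtools 2.30 and SEACR 1.3, and the names of the lists give a SEACR threshold of 0.01 in stringent mode. Peaks were called in each library separately, with no pooling. The deposited signal of a peak, total and maximum, is coverage that the authors did not normalise between libraries. SEACR keeps a top share of the enriched blocks of a library, so list length and peak width move with depth and background. Depth is unknown, and no counting interval is given. Per the methods, peaks in blacklisted regions had been taken out. It could not be settled from the lists if this holds for them too, and no blacklist was applied.

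Labels and list names give GRCm39, while the methods name mm10 for the alignment. On 5 of 21 chromosomes peaks ended beyond the GRCm38 chromosome end, so the coordinates were taken as GRCm39. The annotation at hand was GRCm38, so gene names, promoter shares, gene lists and sequences were not used here. At 4 dpi the replicate numbers in the list names are swapped relative to the labels, which were followed.

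Peaks on chromosomes 1 to 19, X and Y were merged across libraries (overlap of at least 1 bp). Library values were compared by 2-sided exact permutation tests. Normal scores of ranks and log2 called length of regions called in all 4 libraries were tested with limma 3.58.1 in R 4.3.3 (trended, robust), adjusted by Benjamini-Hochberg over all 7515 regions and called below 0.05. The procedure was also run on simulated shifts, with the same noise in every region. That run could not test the variance settings on which the calls depended. Named were the 20 rises and 10 falls by total signal and 5 by maximum in each direction with the smallest adjusted p, the 8 gained and 8 lost regions with the highest lower percentile, the 10 widest regions, and 8 called in length each way (none passed). Only 4 falls and 4 rises by maximum existed. Examples were drawn from these. Groups by width and by other marks, the pairs of neighbouring rises and the X comparison were chosen after the values were seen. The members, measures and lists were chosen with earlier results of these data known. Alternatives covered the threshold, list length, merging gap, coverage, scaling, variance prior, replicate block and each library left out.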

Additional observations from a re-analysis of the deposited data

Results flagged for a closer look

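Peaks outside chromosomes 1 to 19, X and Y were left out of every comparison, and each H3K27me3 list held more of them than the limit of 3 that a count of 0 allows: 13 and 17 at 2 dpi and 16 and 10 at 4 dpi. In each list 1 of them lay on the mitochondrial genome and the others on unplaced sequences. Together they held 0.356 and 0.185% of the summed signal at 2 dpi and 0.255 and 0.209% at 4 dpi, so the groups overlapped. No group held 4 or more samples, so no library was tested as standing apart from its group.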

How the results depend on the processing

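Direction held under each alternative run for median width, the share of peaks over 10 kb, covered length and the X share. It also held for the 20 rises, 4 falls and 4 rises by maximum of the naming rule. With a constant prior variance and no robust step, however, all 24 of these calls by total signal and all 4 by maximum no longer passed the test. Without 4 dpi replicate 1, 18 of these 24 calls by total signal were lost, and without replicate 2, 23. Regions gained numbered 805 in the upper 50% of each list, 841 with lists of equal length and 1065 with peaks merged across gaps of 5 kb, against 1758, and lost regions 32 in the upper 50% and 321 with equal lengths, against 148. With each library left out in turn, gained ran from 2458 to 3942, lost from 271 to 762, bases called only at 4 dpi from 14.4 to 23.9 Mb and those only at 2 dpi from 1.83 to 4.01 Mb. Rises by total signal then ran from 2 to 425, falls from 0 to 62, rises by maximum from 0 to 286 and falls by maximum from 0 to 57, where the lone library of a time is assumed to vary like the other time. With a constant prior variance and no robust step 0 regions rose or fell by total signal and 0 rose by maximum. With ranks of mean signal per called base 0 rose and 0 fell. With the replicate number as a replicate block, 187 rose and 21 fell by total signal, all 71 of the calls without it among them, and 29 rose and 3 fell by maximum. The mice differ between times, and it is not known whether same-numbered libraries shared a preparation or sequencing batch. Deviations of same-numbered libraries correlated at −0.05 for total signal. The cause of these differences was not tested, other than that fewer libraries loosen the definition of gained and lost. Shares of peaks at promoters, promoters gained or lost and gene lists were not run. Depth limits list length and width, and it is unknown.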

Other observations

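The chromosomes did not share alike in the covered length. As a share of the bases covered in a library, both 4 dpi libraries lay above both 2 dpi libraries on 6 of 21 chromosomes and below them on 6, and overlapped on 9. Chromosome 11 held 6.86 and 7.28% at 2 dpi and 7.61 and 7.81% at 4 dpi, and chromosome 7 held 7.26 and 7.09% and then 7.38 and 7.54%. On the lower side, chromosome 13 held 5.31 and 5.44% at 2 dpi and 5.18 and 4.71% at 4 dpi, and chromosome 3 held 4.98 and 4.83% and then 4.72 and 4.405%. These are shares that sum to a whole, 2 libraries a time were compared, and no test was run on them.

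Peaks of the other marks appeared or went at some H3K27me3 regions that were called in all 4 libraries. H3K4me3 peaks were present in both 4 dpi and neither 2 dpi library at 186 of the 7515 regions, and the reverse held at 23. For H3K27ac the counts were 184 and 11, and for H3K18la 14 and 37. At the 1758 gained regions H3K27ac peaks appeared at 40 and went at 1, while H3K18la peaks appeared at 3 and went at 7. The lists of the other marks differ in length between libraries, and the part of this in the counts was not tested.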
